A study of Mus musculus with 4 samples.

Results

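Annexins and small S100 proteins are calcium-binding proteins, and 10 of their genes were followed here in mouse alveolar macrophages: Anxa1, Anxa2, Anxa3, Anxa4, Anxa5, S100a1, S100a4, S100a6, S100a10 and S100a11. They were taken by gene symbol from tag tables that hold 7280 genes with counts, and their tags were used singly and summed per gene. The choice applied no threshold to their values, but it was made with earlier results of these data known. Of the 10 genes, 9 had counts in at least 1 library, and 35 of their 39 listed tags did. Alveolar macrophages are the resident phagocytes of the air spaces. They came from BALB/c wild-type mice of 2 groups with 2 libraries each. Untreated mice had no injection and no lung metastasis. The other mice carried lung metastases 21 days after an intravenous dose of BNL, a cell line from mouse liver cancer (hepatocellular carcinoma). No group with a control injection is described, so injection and metastasis cannot be told apart. No age is given, and it is not stated whether replicate libraries stem from different animals or pools. The p-values therefore measure the spread between libraries only, which may be technical.

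Annexins bind acidic membrane phospholipids when calcium rises, through loops in a core of repeated segments, and differ mainly in their N-terminal tails. S100 proteins are small dimers of EF-hand subunits that bind partner proteins, among them annexins. S100A10 (p11) does not need calcium and holds the tail of annexin A2 in a complex at the plasma membrane that takes part in plasminogen binding and vesicle traffic, while S100A11 binds the tail of annexin A1. In macrophages annexin A1 is known as a mediator that limits inflammation through formyl peptide receptors, and annexin A5 as a binder of phosphatidylserine.

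The assay was SAGE (serial analysis of gene expression), in which NlaIII cuts cDNA at CATG and the 21 bases next to the cut serve as the counted tag. A transcript gives by design 1 tag, at its NlaIII site nearest the 3′ end, so counts should not scale with transcript length. Such sites held 72.7% to 84.6% of all counts per library, so levels of different genes compare only roughly. Replicates 1 and 2 summed to 1783814 and 1630776 counts for day 21 and to 1962569 and 2198563 for untreated mice. The 10 genes took 1.03% and 1.56% of these on day 21, and 1.17% and 1.76% in untreated mice. A single gene, Ctsd, took 36.4% and 35.5% on day 21, and 24.9% and 22.4% in untreated mice. Its effect on the shares of other genes in the total was not tested. Of 10 alveolar macrophage markers, 9 had counts (Siglecf between 28 and 91 per library), Marco had 2 counts in 1 library only, and Fabp4 had none. The lymphocyte, endothelial and dendritic cell markers that the tables list, 6 of 10, 3 of 5 and 1 of 7, were at 0 in every library. Markers of monocytes and monocyte-derived macrophages summed to 2127 and 3136 CPM on day 21 and to 45.2 and 102.2 CPM in untreated mice. Of these 13 genes 12 are listed and 9 had counts, while Plac8, Vcan, F13a1 and Cx3cr1 had none. Most of each sum was Apoe, whose counts were 3036, 3811, 58 and 192 (day 21 replicates 1 and 2, then untreated replicates 1 and 2). Ccr2 had 2, 2, 0 and 0 in that order. The 5 tested genes all had a positive log2 change from untreated to day 21. Whether the sums reflect more such cells was not tested. CPM is the count per 1000000 counts of a library, with library sizes scaled by the TMM method of edgeR. Of 9 hepatocyte and liver cancer markers 2 are listed. Afp had 3 counts in 1 untreated library, and Trf, which macrophages also express, had 57497 to 84369 per library.

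The tags that carried the counts of these genes are printed as examples of what was counted, 5′ to 3′ on the transcript strand, with the NlaIII site in capitals followed by the counted bases. Positions are GRCm38 positions from a match to GENCODE M21 transcripts, while the submitters' processing notes name mm9.
Anxa5: CATGaagggtgctgggacggacgat
Anxa2, coding tag: CATGctgaaaatcagatctgaattc
Anxa2, 3′ UTR tag: CATGagacacttcctcttatgtact
Anxa1: CATGggcttaagtaggaaagttgct
Anxa3: CATGaagggaactggcacagatgaa
Anxa4: CATGagacatttttaattaaaatgg
S100a11: CATGtatcccacgcctgctggcaaa
S100a10: CATGaagcagaaggggaagaagtag
S100a1: CATGcccattcgggcaaggaagggg

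The main tag of a gene is the one with the most counts over all libraries, and each of those printed, the second Anxa2 tag included, matched transcripts of 1 gene. The Anxa5 tag spans the junction of exons 11 and 12 of 13 in the coding sequence (chr3:36450417-36450644, minus strand) and the Anxa3 tag that of exons 5 and 6 of 13 (chr5:96816448-96820419, plus strand). The coding tag of Anxa2 lies in exon 12 of 13 (chr9:69489711-69489735, plus strand), and its 3′ UTR tag in the last exon (chr9:69491733-69491757). The main tags of Anxa1 (chr19:20373628-20373652, minus strand) and Anxa4 (chr6:86736854-86736878, minus strand) lie in the 3′ UTR of exon 13 of 13. All counted S100 genes lie on chromosome 3. The main S100a11 tag is in the 3′ UTR of exon 3 of 3 (chr3:93526233-93526257, plus strand), and that of S100a10 at the end of the coding sequence in exon 3 of 3 (chr3:93564380-93564404, plus strand). The S100a1 tag is in the coding sequence of exon 2 of 3 (chr3:90512064-90512088, minus strand).

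Several annexin tags share a sequence that the choice of genes did not use. The pattern CATGAANGGNNNNGGNACNGANGA, where N is any base, holds the bases common to 7 tags that were seen to be alike, so its match to them is a description. It was found in 7 of the 27 listed tags of Anxa1 to Anxa5, at least 1 in each of these 5 genes, all within the coding sequence. Among all 30627 listed tags with their site, 8 held it, 0.0261%, and the eighth is a tag of Anxa6 with no counts. The reverse complement was found in 0 tags. That outcome was fixed in advance, since the pattern is nearly as long as a tag with its site, which always starts with CATG. No other motif was searched. It lies in the repeated core that annexins have in common, and its members differ at the free positions:
Anxa1: CATGaagggacttggaacagatgaa
Anxa2: CATGaagggcctggggactgacgag
Anxa4: CATGaagggagctggcacggacgag
Anxa4, second: CATGaaaggcctcggtactgatgaa
Anxa5, second: CATGaaaggcttgggtaccgatgag
The main tags of Anxa5 and Anxa3 printed above are the other two. Counts of these 7 tags ran from 2 over all libraries for the second Anxa4 tag to 54279 for the main Anxa5 tag.

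Where a gene has several NlaIII sites, its counts were spread over them unevenly. For 6 of the 8 tested genes the main tag was at the last NlaIII site of the transcript that pairs with the deposited RefSeq accession. It held 99.5% of the 54543 Anxa5 counts over all libraries, 99.2% of the 43331 S100a11 counts and 97.7% of the 309 S100a10 counts. Anxa4 was spread more widely, with 63.9% at its last site and the rest on 5 other sites. Anxa2 and Anxa3 were the exceptions. Their main tags were at the second of 7 sites from the 3′ end, 414 bases from it, with 72.1% of 6571 counts, and at the fourth of 6 sites, 1073 bases from it, with 71.4% of 112 counts. Their last sites held 25.1% and 26.8%. For S100a11, 2 minor tags also matched transcripts of Gm12854 and Gm7665, so their counts, 318 and 8 over all libraries, are uncertain.

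**Figure D1:**
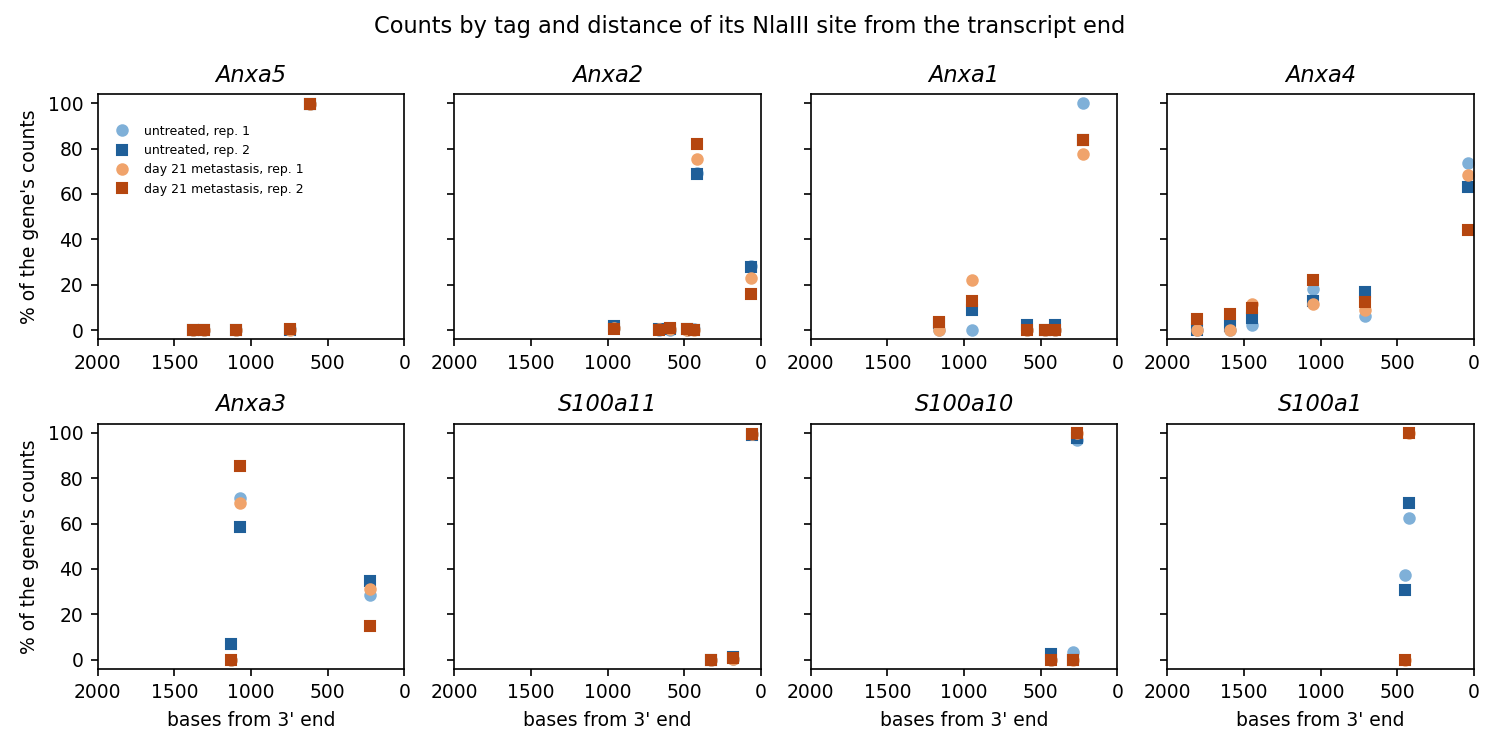
Share of the counts of a gene (percent, vertical axis) at each listed tag against the distance of its NlaIII site from the 3′ end of the transcript (bases, horizontal axis), for 8 genes, with 1 point per library. Nearly all points of Anxa5, S100a11 and S100a10 sit at 1 site near 100% or at the others near 0, while Anxa2 and Anxa3 hold most counts at a site further from the end than their last one.

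Anxa5 and S100a11 were by far the most abundant of the 10 genes, the 15th and 18th in mean level among all genes with counts. Anxa5 was at 6130 and 9038 CPM on day 21 (replicates 1 and 2) and at 6775 and 7079 CPM in untreated mice. Its groups overlapped, with both untreated libraries between those of day 21. S100a11 was at 3787 and 8172 CPM on day 21 and at 3864 and 7095 CPM in untreated mice, so its groups overlapped almost entirely, and its range overlapped that of Anxa5.

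Anxa2, whose product forms the complex with S100A10, came next, at 485.7 and 853.6 CPM (day 21) and at 502.5 and 1430 CPM (untreated). All of its values lay below every value of S100a11 and above every value of the remaining genes. Its highest library was untreated replicate 2, and the other untreated library lay between those of day 21.

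After it came Anxa4, S100a10, Anxa1, Anxa3 and S100a1, in this order of mean level. The ranges of neighbours in that order overlapped, while Anxa4 lay above Anxa3 and S100a1 in every library, and S100a10 above S100a1. Anxa4, a membrane-aggregating annexin best known from epithelia, was at 25.1 and 29.2 CPM on day 21 and at 40.7 and 60.5 CPM in untreated mice. S100a10 was at 10.8 and 15.0 CPM on day 21 and at 28.5 and 86.3 CPM in untreated mice. For both genes each day 21 library was below each untreated library. Anxa3, a less studied annexin first known as lipocortin III, went the other way, with 24.0 and 24.2 CPM on day 21 against 3.44 and 11.9 CPM in untreated mice. The 2 day 21 values of Anxa3 were nearly equal, and its untreated values were apart by 3.45-fold.

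Anxa1 had the widest spread. It was at 5.14 and 39.2 CPM on day 21 and at 7.85 and 74.8 CPM in untreated mice, from 9, 55, 16 and 183 counts. In each group 1 library, the one numbered 2, was high and the other low. S100a1, best known from heart muscle, was at 2.28 and 8.55 CPM on day 21 and at 3.93 and 10.6 CPM in untreated mice, from 4, 12, 8 and 26 counts, and its groups overlapped.

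S100a6 (calcyclin) and S100a4 were at the limit of detection. S100a6 had 2 and 5 counts on day 21 and is listed at 0 in both untreated libraries. S100a4, a gene known for its link to cell motility and metastasis, is listed at 0 in all 4 libraries. Counts of 1 are missing from all 4 tables, so a tag listed at 0 may have been read once. With 2 listed tags per gene, such a zero allows up to 5.69 counts per library, or 2.59 to 3.49 CPM of the unscaled total (5% probability, equal shares per tag, counting error only). As raw counts, both S100a6 values of day 21 lie under 5.69. Scaled to the library total, the 5 counts of replicate 2 lie above the limits of the untreated libraries, 2.90 and 2.59 CPM. With so few counts, no fold is given for either gene.

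**Figure D2:**
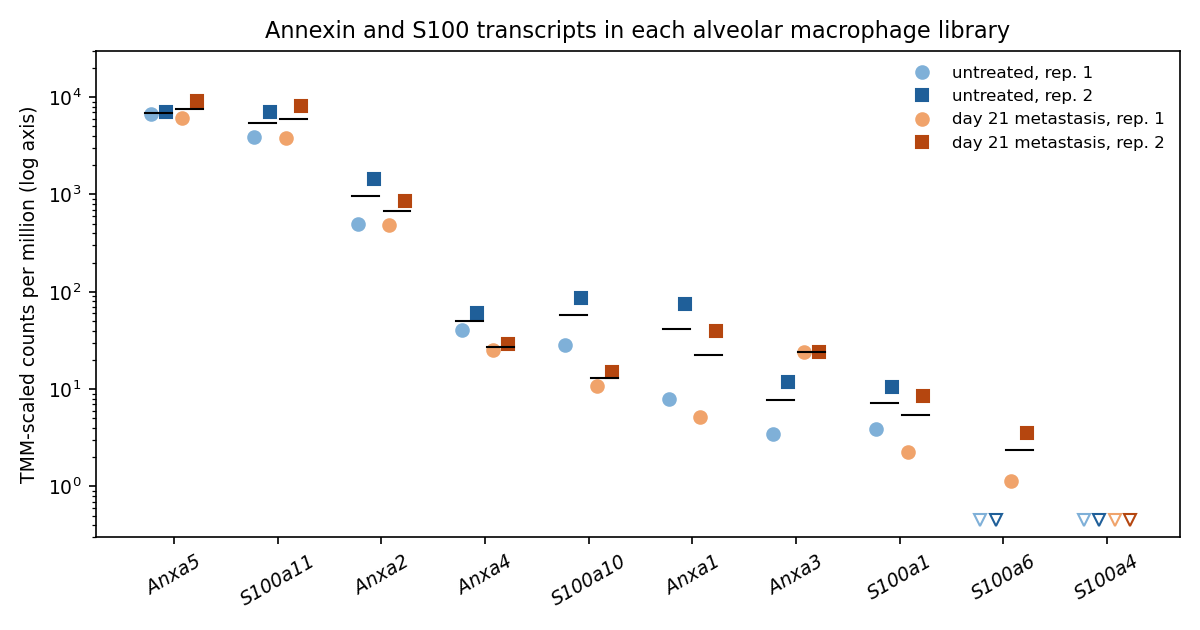
Level of each gene (TMM-scaled CPM, log axis) in each library, with circles for replicate 1, squares for replicate 2 and a line at the mean of each group. Open triangles at the bottom mark libraries where a gene is listed at 0. Anxa5 and S100a11 sit at 3787 CPM or more, Anxa2 between 485.7 and 1430 CPM, and the remaining genes at 86.3 CPM or less.

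The comparison of day 21 metastasis with untreated mice found 0 of the 8 tested genes past the threshold (quasi-likelihood test of edgeR, adjusted p under 0.05 by Benjamini-Hochberg over 2993 genes), where 0.735% of all tested genes were called, 0.668% higher and 0.0668% lower on day 21. S100a4 and S100a6 did not pass the filter on low counts. At an unadjusted p under 0.05 there were 2 of 8 members, S100a10 and Anxa3, against a background of 5.68%. DESeq2, limma-voom and the likelihood ratio test also called 0 of 8, with 1, 2 and 2 members at an unadjusted p under 0.05. Groups did not overlap for 3 of 8 members, 1 higher and 2 lower, where 31.2% of all tested genes had non-overlapping groups (15.2% higher and 16% lower). The log2 change was negative for 5 of 8 members, with a median of -0.50, where 54.5% of all tested genes were negative, with a median of -0.07. The members' median rested on single libraries: it was 0.45 without untreated replicate 2, 0.13 without day 21 replicate 1, -0.97 without day 21 replicate 2 and -1.04 without untreated replicate 1. It was -0.14 with the most counted tag of each gene alone and -0.77 with total counts. Fewer cells of a type and less RNA per cell cannot be told apart in such bulk libraries.

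S100a10 had the largest log2 change in size, -2.15 ± 0.75 (SE, 95% interval -3.69 to -0.61), that is 4.45-fold lower, with an edgeR adjusted p of 0.392. Its mean was 12.9 ± 2.91 CPM for day 21 and 57.4 ± 40.9 CPM for untreated mice (SD, n = 2 each). Without untreated replicate 2 the log2 change was -1.11, and without untreated replicate 1 it was -2.73. Epithelial markers, of which 7 of 11 are listed and 3 had counts, summed to 33.1 and 44.9 CPM for day 21 and to 82.4 and 153.7 CPM for untreated mice. That is the same order of libraries as for S100a10 and Anxa4. Krt19 had that order in raw counts (24, 56, 59 and 305) but not in CPM. Epcam, at 34, 7, 109 and 66 counts, was lower in the library numbered 2 of both groups, and Sftpa1 is listed at 0. The part of such cells in these values was not tested. Anxa3 had a log2 change of 1.63 ± 0.77 (95% interval 0.04 to 3.23, edgeR adjusted p = 0.823), with means of 24.1 ± 0.181 and 7.65 ± 5.96 CPM. It was 2.81 without untreated replicate 2, where its adjusted p was 0.0851, and 1.02 without untreated replicate 1. The sum of the monocyte and monocyte-derived macrophage markers given above, mostly Apoe, was higher in both day 21 libraries, as Anxa3 was. Pf4, a platelet gene, was also higher, at 35 and 37 counts against 0 and 4 (edgeR adjusted p = 0.0172). Of 8 platelet and red cell markers 5 are listed and 2 had counts, and the other of these, Hba-a1, had a negative log2 change. Ppbp, Gp9 and Itga2b had no counts. The part of such cells in the values of Anxa3 was not tested.

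For the other 6 genes the intervals covered 0. Anxa4 had a log2 change of -0.90 (95% interval -2.29 to 0.49) and Anxa1 one of -0.91 (-2.73 to 0.90). For Anxa2 and S100a1 it was -0.53 (-1.76 to 0.70) and -0.46 (-2.30 to 1.37). Anxa1, Anxa2 and S100a1 were at 1.51, 0.44 and 0.46 without untreated replicate 2, so their direction rested on that library, and S100a1 was also at 0.28 without day 21 replicate 1. The narrowest intervals belonged to the abundant genes, Anxa5 at 0.13 (-0.87 to 1.13) and S100a11 at 0.13 (-0.95 to 1.20). Both turned negative without day 21 replicate 2, to -0.14 and -0.50, and with total counts, to -0.11 and -0.15, and S100a11 was at -0.24 without untreated replicate 1. These intervals still allow about a doubling or a fall of like size, so a missing call does not show equal levels. The edgeR adjusted p was 0.998 for all 6 genes.

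**Figure D3:**
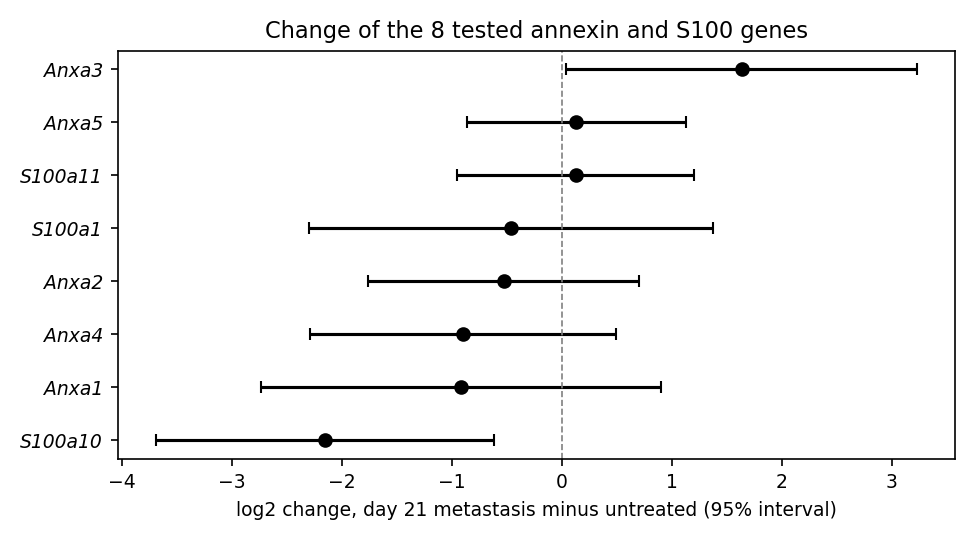
Log2 change from untreated to day 21 metastasis (horizontal axis) of the 8 tested genes, with 95% intervals from the edgeR quasi-likelihood fit and a dashed line at 0. The intervals of S100a10 (-3.69 to -0.61) and Anxa3 (0.04 to 3.23) leave out 0 before adjustment, and no gene passed after it.

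Tags were also tested singly. Of 14 tested tags of the 8 genes, 0 passed (edgeR quasi-likelihood test over 3907 tags, where 0.358% were called), with 2 at an unadjusted p under 0.05 (4.89% of all tested tags) and a smallest adjusted p of 0.762. These 2 were the main tags of S100a10, with 19 and 21 counts on day 21 against 56 and 206, and of Anxa3, with 29 and 29 against 5 and 17. Groups did not overlap for 6 of the 14, 1 higher and 5 lower, against 31.9% of all tested tags (17% higher and 14.8% lower). The log2 change was negative for 9 of the 14, against 51.4% of all tested tags.

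The balance of S100a10 and Anxa2, whose products form 1 complex, was examined after the values had been seen. S100a10 made up 2.18% and 1.72% of the summed counts of both genes on day 21 (exact 95% intervals 1.32% to 3.39% and 1.07% to 2.62%). In untreated mice it made up 5.36% and 5.69% (4.10% to 6.87% and 4.97% to 6.48%). The 2 libraries of a group lay within each other's intervals, although the Anxa2 level differed 2.85-fold between the untreated libraries. The share needs no scaling between libraries. Its mean was 1.95% ± 0.326 on day 21 and 5.52% ± 0.232 in untreated mice (SD, n = 2 each). With 2 libraries against 2, the smallest p an exact two-sided permutation test allows is 0.333, which is the value here.

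The 2 main tags of Anxa2, the coding and the 3′ UTR tag printed above, were compared in the same way. The 3′ UTR tag held 23.4% and 16.4% of their summed counts on day 21 (exact 95% intervals 20.5% to 26.4% and 14.3% to 18.6%) and 29.1% and 28.8% in untreated mice (26.3% to 32.0% and 27.2% to 30.3%). The day 21 libraries differed from each other by more than their counting intervals, and both were below the untreated ones (exact two-sided permutation p = 0.333, the smallest possible). Another share served as a check of tag identity. One tag listed under another name, LOC100502897, differs from the main S100a11 tag only by A19G, counted from 1 at the first base after CATG. It had 14, 24, 14 and 43 counts, which is 0.212% and 0.210% of both tags on day 21 and 0.178% and 0.25% in untreated mice, and it was not added to S100a11. Only these 3 shares were put to the permutation test, while the share of each tag in its gene was computed without a test.

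**Figure D4:**
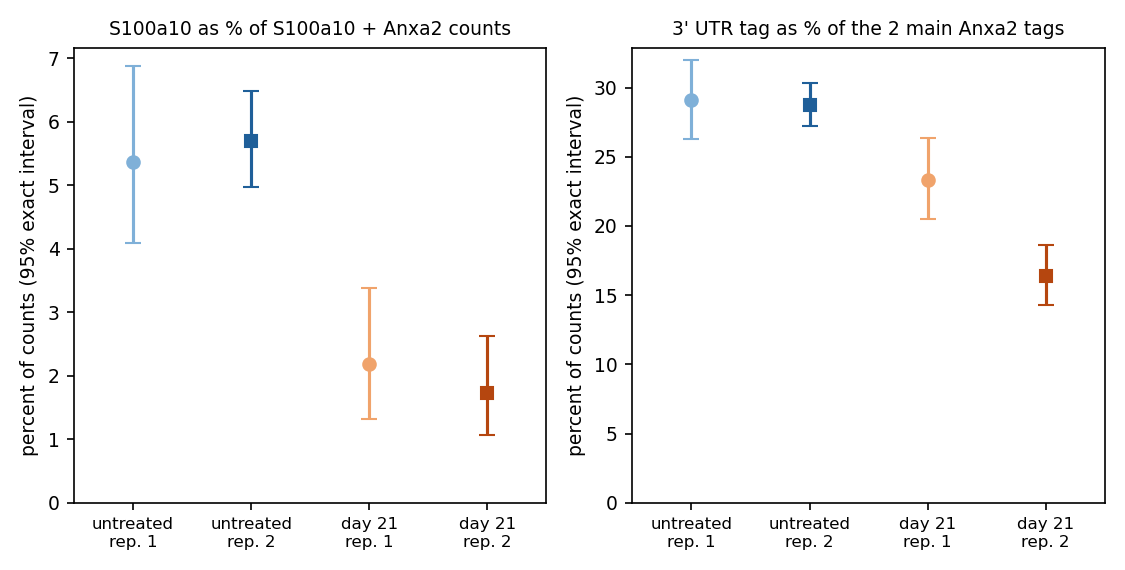
S100a10 as a percent of the summed S100a10 and Anxa2 counts (left) and the 3′ UTR tag as a percent of the 2 main Anxa2 tags (right) in each library, with exact 95% intervals that cover counting error only. On the left the untreated libraries sit above 5% and the day 21 libraries near 2%, and on the right the untreated libraries sit near 29% and the day 21 libraries at 23.4% and 16.4%.

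The 2 libraries of a group differed in a way that these genes shared. In both groups, all 8 tested members had a higher CPM in the library numbered 2 than in the library numbered 1, and 34.6% of all tested genes did so. With total counts in place of TMM scaling, which was tried after seeing the data, 7 of 8 did, without Anxa3, against 32.6% of all tested genes. The difference was widest for Anxa1, at 7.63-fold on day 21 and 9.53-fold in untreated mice. For S100a11 it was 2.16-fold and 1.84-fold, for S100a1 3.75-fold and 2.71-fold, and for Anxa2 1.76-fold and 2.85-fold. It was small for Anxa5, at 1.47-fold and 1.04-fold, and for Anxa4, at 1.16-fold and 1.49-fold. S100a10 and Anxa3 differed by 3.03-fold and 3.45-fold between the untreated libraries and by only 1.38-fold and 1.01-fold on day 21. The members share their libraries, so this is 1 observation on 4 libraries rather than 8. The share of all counts at sites nearest the 3′ end also went with the number, at 84.6% and 77.9% on day 21 and 78.5% and 72.7% in untreated mice, and was lower in the library numbered 2. Its part in the pattern, or in the Anxa2 tag share above, was not tested.

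Marker sums of other cells also differed between the libraries of a group. The neutrophil list summed to 75.9 and 275.8 CPM on day 21 and to 10.8 and 156.6 CPM in untreated mice. Most of it was the antimicrobial peptide gene Camp, at 121, 352, 19 and 343 counts, while S100a8 had 0, 5, 0 and 3, and 6 of the 11 genes, among them Cxcr2 and Mmp9, which are listed, had no counts. Alveolar macrophage markers summed to 1454 and 3603 CPM on day 21 and to 726 and 2289 CPM in untreated mice. Chil3, at 1834, 3897, 671 and 2921 counts, and Ear2 made up most of that sum. Of 8 tested markers 5 had a negative log2 change (median -0.32), among them Siglecf, at 37, 28, 56 and 91 counts, and Plet1, at 52, 84, 206 and 343. The red cell gene Hba-a1, at 41, 87, 67 and 365 counts, was higher in the library numbered 2 of both groups. The part of any of these cells in the values of the annexin and S100 genes was not tested.

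**Figure D5:**
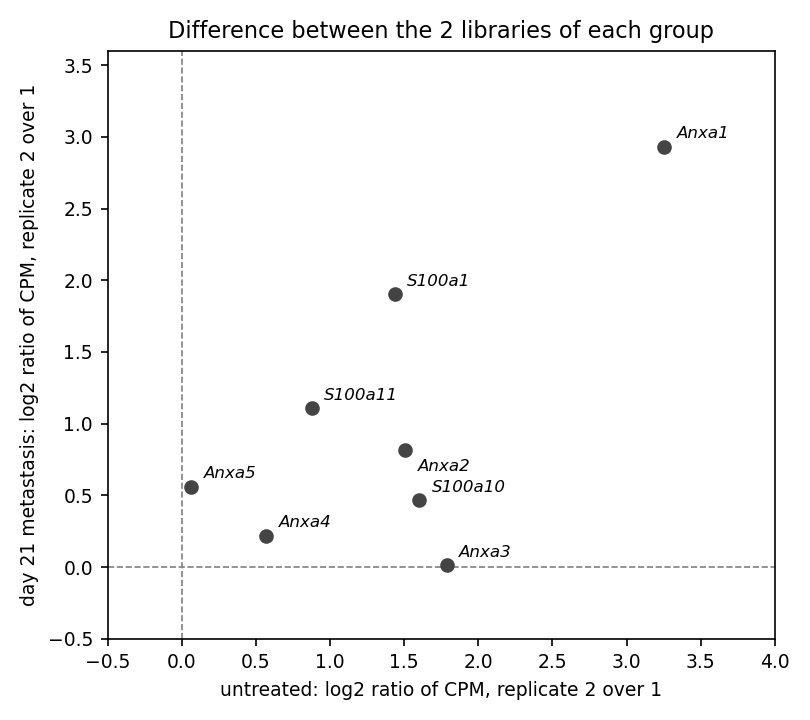
Log2 ratio of CPM between the library numbered 2 and the library numbered 1 within untreated mice (horizontal axis) and within day 21 mice (vertical axis), with 1 point for each of the 8 tested genes and dashed lines at no difference. All points are at or above 0 on both axes, with Anxa1 furthest out and Anxa3 close to 0 on the day 21 axis.

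The other family members that are listed gave few counts. Of 7 other annexins, 5 are listed, 4 had counts and 2 were tested, with 0 called (edgeR) and 0 at an unadjusted p under 0.05. Anxa11, whose product links lysosomes and RNA granules, had 88 and 131 counts for day 21 and 23 and 290 for untreated mice (log2 change 0.14 ± 0.76, edgeR adjusted p = 0.998). In each group its library numbered 2 was again the higher one. Anxa6, a larger annexin with a doubled core, had 20 and 11 counts for day 21, 37 and 27 for untreated mice, and did not share that pattern. Of 11 other S100 genes only 5 are listed, so the rest could not receive counts. Among those listed, S100a8 and S100a9, the neutrophil pair of calprotectin, were the only ones with counts. S100a9, with 9, 27, 0 and 30 counts, did not pass (edgeR adjusted p = 0.998).

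Of 26 partner, receptor and membrane repair genes, 15 were tested and 0 passed, with 3 positive and 12 negative log2 changes and a median of -0.38 (-0.07 for all tested genes). Plau, the urokinase that activates plasminogen, had the smallest p, at 24 and 25 counts for day 21 and 2 and 7 for untreated mice (log2 change 2.96 ± 0.87, edgeR adjusted p = 0.159). Fpr1, a formyl peptide receptor that annexin A1 peptides can engage, was at 89.0 and 145.4 CPM on day 21 and at 101.6 and 285.4 CPM in untreated mice. Cacybp, which encodes a partner of S100A6, was at 17.7 and 20.7 CPM on day 21 and at 26.0 and 37.6 CPM in untreated mice. Of 26 genes in a list of other EF-hand genes, 16 were tested and 0 passed. Their median log2 change was -0.17, and 7 were positive and 9 negative. The list includes Lcp2 (log2 change -0.32), which does not encode an EF-hand protein. The smallest p there belonged to Nucb1, a Golgi calcium-binding protein, which was at 551.9 and 1059 CPM on day 21 and at 338.1 and 368.4 CPM without treatment (log2 change 1.19 ± 0.58, edgeR adjusted p = 0.893). Sri, which encodes the calcium sensor sorcin, was at 86.8 and 219.5 against 32.4 and 122.7 CPM, and Efhd2 at 81.6 and 28.5 against 97.7 and 77.3 CPM.

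The genes whose pattern over the 4 libraries was most like that of a member were found by the root mean square distance of log2 CPM, each gene centred on its mean, among 2129 tested genes at 10 CPM or more. With only 4 libraries near matches are common, and no shared function is implied. For S100a10 the nearest were Cpne5, a copine, at a distance of 0.21, Hsp90ab1 (0.27) and Clec7a (0.32), and only 1 gene lay within 0.25. Anxa1 had 0 genes within 0.25, and its nearest was Ezr, which encodes the membrane-actin linker ezrin, at 0.39. Anxa3 had 10 genes within 0.25, led by Vapb, Ctsl and Fabp5 (0.11 to 0.15). Anxa2 had 61, led by Nceh1, Txn1 and Fpr1, each at 0.10. Anxa5 and S100a11 had 227 and 124, led by Gmppa (0.02) and Pex14 (0.08). Among the members, Anxa2 and S100a1 were nearest to each other (0.27), and Anxa3 and S100a10 were furthest apart (1.81).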

How the data were processed

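Each deposited table lists 21-base tags with a symbol, a RefSeq accession and a raw count, per the file headers. SAGE tags were cut with NlaIII and EcoP15I and amplified by PCR, per the labels' protocols. The submitters' processing notes name mm9. How tags were matched and filtered is not given in the sources used here. Amplified tags carry no molecular identifiers, so intervals and limits cover counting error only. Tags were joined to genes through a table of NCBI RefSeq genes (29346 of 30627 tags by accession), which left the sums of the 10 members equal to those per deposited symbol. Differences were tested with edgeR 4.0.16 in R 4.3.3 (quasi-likelihood test, TMM, filterByExpr with a minimum count of 10 and a minimum total of 15, Benjamini-Hochberg adjustment, threshold 0.05, group as the only term), after a trial on simulated counts. Standard errors came from the log2 change and F. Exact intervals are Clopper-Pearson intervals (scipy 1.17.1). Alternatives used DESeq2 1.42.0, limma 3.58.1, other scalings, filters and tag choices, a replicate block and each library left out. The members and lists were chosen with earlier results of these data known. Named genes were all members and the up to 3 genes of smallest p in each wider list, plus S100a8 and, for each member, the up to 3 tested genes nearest in pattern. Ctsd and some genes of the cell type marker lists were also named.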

Additional observations from a re-analysis of the deposited data

How the results depend on the processing

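No member passed the threshold under any of the 15 alternatives run (0 of 8, or 0 of 9 with no filter on low counts). Anxa3, Anxa4 and S100a10 kept their direction in all of them, and the adjusted p ran from 0.0967 to 0.9998 for S100a10 and from 0.0851 to 0.9999 for Anxa3. Without untreated replicate 2 the log2 change turned to 1.51 for Anxa1, 0.44 for Anxa2 and 0.46 for S100a1. Without day 21 metastasis replicate 2 it turned to -0.14 for Anxa5 and -0.50 for S100a11, without day 21 metastasis replicate 1 to 0.28 for S100a1, and without untreated replicate 1 to -0.24 for S100a11. With total counts alone it turned to -0.11 for Anxa5 and -0.15 for S100a11, and the median of all genes moved to -0.29. With the tag of most counts alone it turned to 0.076 for S100a1. With 1 library left out, it ran from -2.97 to 1.51 for Anxa1, -1.09 to 0.44 for Anxa2, -1.63 to 0.46 for S100a1 and -0.50 to 0.66 for S100a11. The cause was not tested.

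Of all genes, 22 were called, against 9 with total counts alone, 41 with the likelihood ratio test, 12 with limma-voom, 41 with no filter, 9 with the tag of most counts, 11 with tags matching 1 gene, and, with 1 library left out, 0 (without untreated replicate 1, where 137 had an unadjusted p under 0.05) to 81 (without untreated replicate 2). Calls ran 20 higher and 2 lower, 9 and 0 with total counts. Of all tags, 14 were called, against 31 with DESeq2 and 17 to 96 with 1 library left out (the lone library of a group is then assumed to vary like the others). Same-numbered libraries deviated together over 2993 genes (r = 0.54), but no label ties the numbers to a batch or animal. With a replicate block, 40 genes and 156 tags were called and 0 members, with an adjusted p of 0.0967 for S100a10 and 0.199 for Anxa3. Of the 9 genes with counts, 8 had over 50% in the main tag in every library where the gene had counts (S100a6 on day 21 only), and 6 in the tag nearest the 3′ end.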
